A study of Mus musculus with 30 samples.

Results

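The comparison described here sets the epithelial fraction (EPI) of the mouse olfactory epithelium (OE) at embryonic day (E) 14.5 against the mesenchymal fraction (MES) dissected beside it. Its members were chosen by their labels: the 3 arrays of the epithelial and the 3 of the mesenchymal fraction of the OE at E14.5, 6 of the 30 arrays in the series, and no measured value entered the choice. The study profiled olfactory development on Affymetrix Mouse Exon 1.0 ST arrays to look for genes of olfactory connectivity and of the migration of GnRH neurons. All 6 arrays hold RNA of wild type embryos from an F1 of C57Black6 and DBA parents, with no treatment, and no allele or transgene distinguishes the groups. Each array holds a separate pool of dissected tissue (at least 4 embryos in a pool by the labels), and neither the labels nor the methods say whether pools shared litters, so p-values measure the spread between pools. The fractions were separated by hand, and the study notes that some mesenchyme stays on the epithelium. The same contrast in the vomeronasal organ (VNO) at E14.5 and in the tissue labelled OP at E12.5, 6 arrays each, was used to see where the OE at E14.5 differs.

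At this age the nasal cavity is lined by an olfactory epithelium of sensory neurons, their progenitors and supporting (sustentacular) cells, which passes into a respiratory epithelium of ciliated, secretory and basal cells. Beneath lies a mesenchyme, largely of cranial neural crest, in which the cartilages of the nasal capsule and the first facial bones form and through which the olfactory axons and the GnRH neurons travel to the forebrain. Signals pass both ways between the layers: Shh, FGF and BMP ligands and retinoic acid act between epithelium and mesenchyme in the development of the face and nose.

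Values are RMA expression values on the log2 scale, as the authors deposited them, so a difference of 1 is a 2-fold change. The array medians were 0.497 lower in EPI than in MES, so each array was centred on its median over all clusters. Every difference below is thus relative to that shift. The spread over clusters differed too, with an SD of 2.41 to 2.46 on the EPI arrays and 2.21 to 2.22 on the MES arrays. Centring leaves that difference in place. Calls required a limma p of at most 0.05 after Benjamini-Hochberg adjustment over all 23238 clusters together with a difference of at least 0.9 in size. For 1 gene on 3 and 3 arrays, the smallest p that an exact two-sided permutation can give is 0.1. In bulk tissue, fewer cells of a type and less RNA per cell cannot be told apart.

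The fraction labels were first read against defining markers, and these separated the fractions only in part. Epcam, an epithelial adhesion molecule, read 11.40, 11.15 and 11.43 on the EPI arrays and 9.82, 9.90 and 9.82 on the MES arrays. All EPI values lay above all MES values, and the difference of 1.48 ± 0.11 (SE), 2.79-fold, was called (limma, adjusted p = 0.00206). Cdh1, which encodes E-cadherin, differed by 0.88, the splicing regulator Esrp1 by 0.80 and the keratin Krt18 by 0.73, all below the minimum difference. The tight junction gene Cldn7 did not separate the fractions (-0.15 ± 0.10). None of the 8 mesenchymal markers was called on this scale. Twist1, a transcription factor of the cranial mesenchyme, read 10.85, 9.67 and 10.81 in EPI and 10.44, 10.15 and 10.18 in MES. Its EPI values lay both above and below the MES values. Prrx1 (0.16 ± 0.26), Col1a1 (0.35 ± 0.13), Col1a2 (0.05 ± 0.09), Col3a1 (0.04 ± 0.11) and Lum (0.09 ± 0.12) were close to 0, Dcn differed by 0.60, and Pdgfra, a growth factor receptor of mesenchyme, by -0.75 ± 0.25 (adjusted p = 0.0607). The signs of these small differences depend on the scale. With the arrays centred 1 of the 8 mesenchymal markers was lower in EPI, whereas on the values as deposited 7 were (all but Dcn at 0.10), among them Twist1 (-0.31), Prrx1 (-0.34), Col1a1 (-0.15), Col1a2 (-0.45), Col3a1 (-0.46) and Lum (-0.41), and after quantile normalization the same 7 were. Pdgfra was called higher in MES in both (-1.25 and -1.17, limma, adjusted p = 0.0117 and 0.0146), and the others stayed short of the minimum difference. Epcam was called under all of these scales. The markers of mesenchyme thus did not set the fractions apart on the centred scale, and the labels EPI and MES are used below for the dissected fractions.

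**Figure D1:**
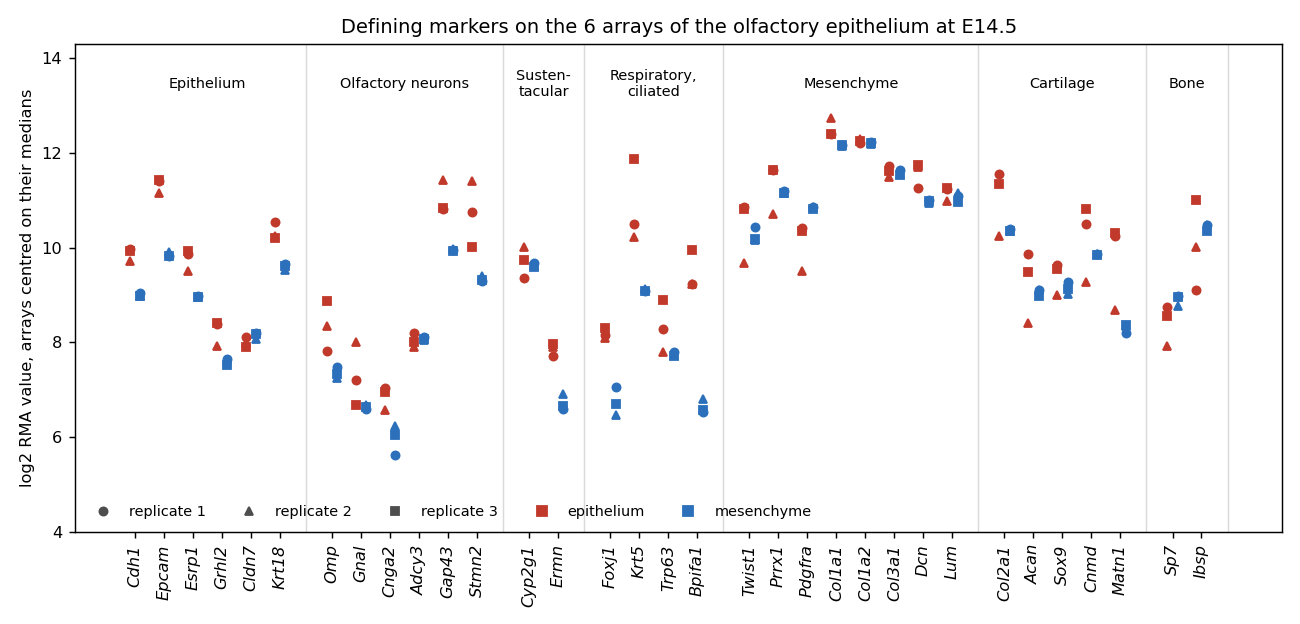
Log2 RMA values of defining markers on the 3 EPI arrays (red) and the 3 MES arrays (blue) of the OE at E14.5, arrays centred on their medians, with replicates shown by symbol. Epcam separates the fractions, while Twist1, Col1a2, Col3a1 and Lum overlap, and EPI replicate 2 (triangles) lies below the other EPI arrays in Matn1, Col2a1, Twist1 and Pdgfra.

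One EPI array stood apart from the others of its group. In EPI replicate 2, 264 of 14090 genes lay more than 1 above both other EPI arrays and 79 more than 1 below both, against 21 to 59 genes in either direction in the other EPI arrays and 4 to 14 in the MES arrays. The cartilage gene Matn1 read 10.24, 8.67 and 10.31 in EPI and 8.19, 8.35 and 8.36 in MES, so that replicate 2 was near the MES level and the others well above it. In the opposite direction Neurod6, a transcription factor of cortical projection neurons, read 6.77, 8.27 and 4.30 in EPI and 2.88, 2.65 and 2.80 in MES. It was highest in replicate 2 and above the MES values on every EPI array. The median SD between replicates was 0.236 in EPI, the largest of the 8 groups of the time course, and 0.109 in MES. Correlations between replicates were 0.963 to 0.974 in EPI and 0.984 to 0.985 in MES.

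A list of 22 genes of forebrain neurons, drawn up after Neurod6 and Nrn1 had been seen among the largest differences, was read on the same arrays. Of 19 measured, 7 were called higher in EPI and 0 in MES, with a median difference of 1.39, where 7.52% and 0.908% of all genes were called in these directions. Neurod6, which prompted the list, is itself among the 7 calls. The count is therefore a description and no test of the list. The mean of the list was 7.41, 8.63 and 6.85 on the EPI arrays and 6.32, 6.09 and 6.24 on the MES arrays, so that it was highest in EPI replicate 2 and above MES on all EPI arrays. Tbr1, a transcription factor of early cortical neurons, read 7.73, 9.04 and 6.16 in EPI and 5.78, 5.67 and 5.78 in MES and did not pass the test (adjusted p = 0.0713). Gad1, which makes the transmitter GABA, read 6.44, 8.86 and 6.39 in EPI against 5.08, 5.12 and 5.29 in MES. Eomes, Fezf2, Reln, Slc17a7 and Neurod2, all expressed in forebrain neurons, were called (1.97, 2.06, 1.74, 1.29 and 1.84). Of the 7 calls, 1 (Neurod2) was kept whichever array was left out. Without EPI replicate 2 the list had 6 calls and a median of 0.85, and on the values as deposited 2 calls and a median of 0.90. After quantile normalization it had 9 calls and a median of 1.53, and with Rank Products, a rank-based test, 8 calls. Some of these genes are also expressed in olfactory neurons or their progenitors, and the part of forebrain tissue in the EPI pools was not tested.

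**Figure D2:**
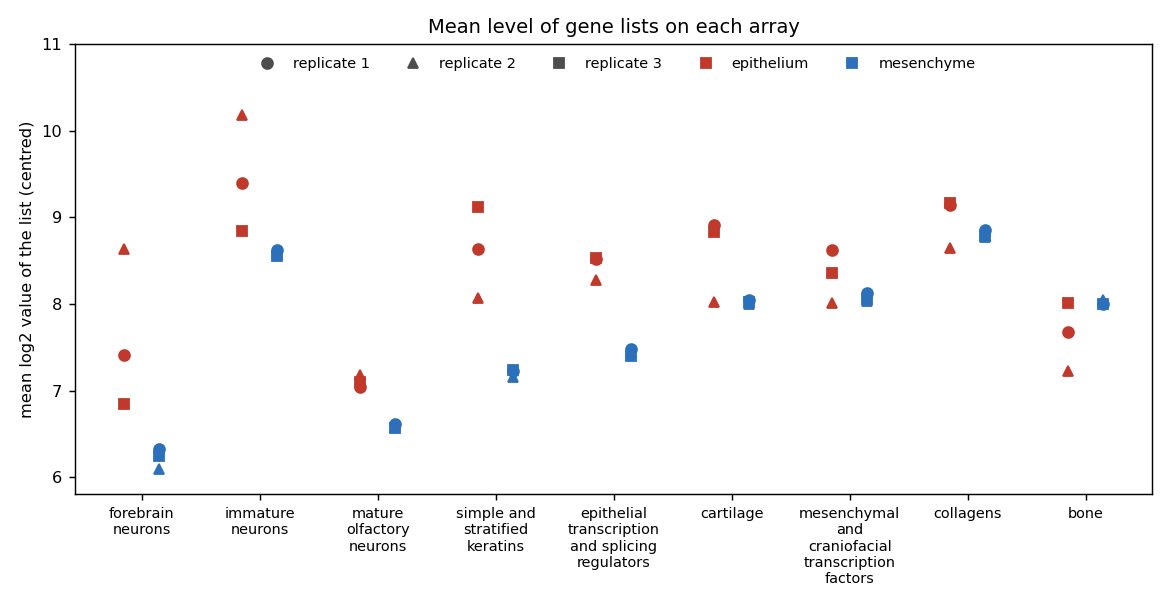
Mean log2 value of 9 gene lists on each EPI array (red) and MES array (blue), arrays centred on their medians, replicates by symbol. EPI replicate 2 has the highest mean for forebrain neurons (8.63) and immature neurons (10.18) and the lowest EPI mean for cartilage (8.02) and bone (7.23), while the MES arrays lie close together in every list.

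Of 14090 genes without olfactory receptor (OR) genes, 1059 (7.52%) were called higher in EPI and 128 (0.908%) higher in MES. The counts of list members below are to be read against these shares. Single genes are best read against a median of 0.30 over all genes tested, since genes with a symbol lay higher in EPI than the clusters on which the arrays were centred. The EPI arrays of 7134 genes (50.6%) lay wholly above the MES arrays and those of 1399 genes (9.93%) wholly below. The split of the calls depends on the scale. Taken as deposited, 121 genes were higher in EPI and 856 in MES. After quantile normalization these were 934 and 187, and with the arrays centred on the genes counted 259 and 471. Under all 4 scalings 121 genes were called higher in EPI and 75 in MES, and no called gene turned to the opposite call under any of them. The 717 OR genes were read apart because near-identical copies can share probes. Of these, 45 (6.28%) were called higher in EPI and 23 (3.21%) higher in MES, with a median of 0.14.

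**Figure D3:**
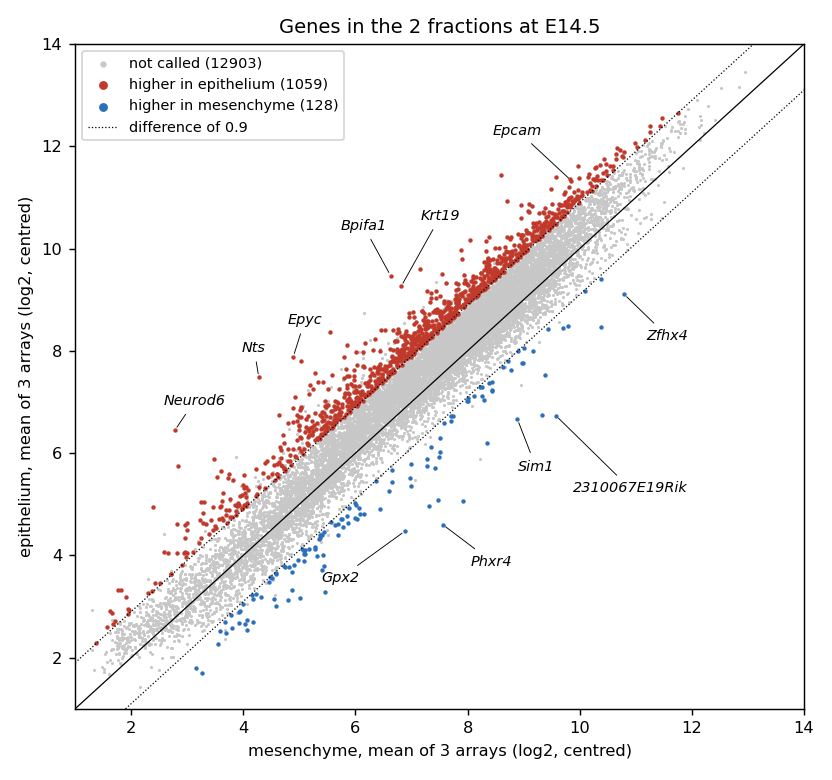
Mean log2 value of each gene over the 3 EPI arrays against the mean over the 3 MES arrays, arrays centred on their medians. Genes called higher in EPI (1059, red) and in MES (128, blue) are coloured, and the dotted lines mark a difference of 0.9.

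The largest differences in favour of EPI, beside Neurod6 (3.67, 12.7-fold), included genes of the airway lining, of neurons and of cartilage. Nts, the precursor of the neuropeptide neurotensin, read 7.13, 8.40 and 6.92 in EPI and 4.16, 4.33 and 4.33 in MES, a 9.24-fold difference (3.21 ± 0.39, limma, adjusted p = 0.00363). Bpifa1, a secreted antimicrobial protein of the upper airway, read 9.23, 9.24 and 9.94 in EPI and 6.52, 6.80 and 6.56 in MES (2.84 ± 0.22). Serpinb11, a serine protease inhibitor family member, read 8.40, 8.0 and 8.67 against 5.55 on each MES array (2.81 ± 0.18). In all 3 genes the fractions were far apart on every array. Epyc, a small proteoglycan of growth plate cartilage, read 8.38, 7.55 and 7.71 in EPI and 4.87, 5.01 and 4.79 in MES (2.99 ± 0.23), so this cartilage gene was higher in the fraction labelled epithelial. Nrn1 (2.78), which promotes neurite growth, Krt19 (2.45) and AY036118 (2.84) were called under all scalings and whichever array was left out. Glra2, a glycine receptor subunit, and Cetn4, a centrin, were called (2.91 and 2.56). The calls of Neurod6 and Glra2 were lost without EPI replicate 1 (3.51 and 3.16) or any MES array (adjusted p up to 0.0827 and 0.123), and that of Cetn4 without MES replicate 1 or 3 (2.51 and 2.35).

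Keratin and junction genes were called in EPI only. Of 9 keratins 5 (55.6%) were called, all in EPI, with a median of 1.56, where 7.52% of all genes were called in EPI. Keratins are the intermediate filaments of epithelial cells, and those of basal layers are Krt5, Krt14, Krt15 and Krt17. Krt19 read 9.31, 8.87 and 9.60 in EPI and 6.96, 6.68 and 6.81 in MES. Krt14 read 9.38, 9.01 and 10.13 against 7.54, 7.46 and 7.66. Krt5 read 10.50, 10.22 and 11.86 against 9.09, 9.11 and 9.08, with the highest value in EPI replicate 3. All EPI values of these 3 genes exceeded all MES values. The calls of Krt5 and Krt17 were lost without any one MES array (log2 1.76 to 1.78 and 1.71 to 1.75, adjusted p up to 0.0667 and 0.0690), and that of Krt17 also without EPI replicate 1 (1.65).

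Of 27 genes of epithelial junctions and polarity, 10 (37%, against 7.52% of all genes) were called higher in EPI and 0 in MES. Their median was 0.76, and 8 of the 10 calls held whichever array was left out. The claudins Cldn4 (1.84), Cldn8 (1.84), Cldn6 (1.29) and Cldn9 (1.29), which seal tight junctions, the desmosomal cadherin Dsc2 (1.72), the polarity gene Crb3 (1.36) and the tight junction gene Ocln (1.19) were among them. Cldn4 read 10.35, 10.23 and 10.11 in EPI and 8.43, 8.46 and 8.27 in MES, a clear gap on every array. Of 20 regulators of epithelial transcription, splicing and surface proteolysis, 11 (55%) were called higher in EPI with a median of 1.02. All 11 calls held whichever array was left out. Spint2, an inhibitor of membrane serine proteases, read 11.55, 11.32 and 11.34 in EPI and 9.58, 9.56 and 9.60 in MES (1.82 ± 0.10). Its targets St14 (1.26) and Prss8 (1.19), the vesicle traffic gene Rab25 (1.53) and the transcription factors Ehf (1.49), Foxa1 (1.27), Trp73 (1.10), Grhl1 (1.06) and Elf5 (1.03) were called as well. Grhl2 (0.64) and Trp63 (0.58), factors of many epithelia and of basal cells, were not. On the values as deposited, 3 of these 20, 4 of the 27 junction genes and 3 of the 9 keratins were called in EPI, and 0 in MES.

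**Figure D4:**
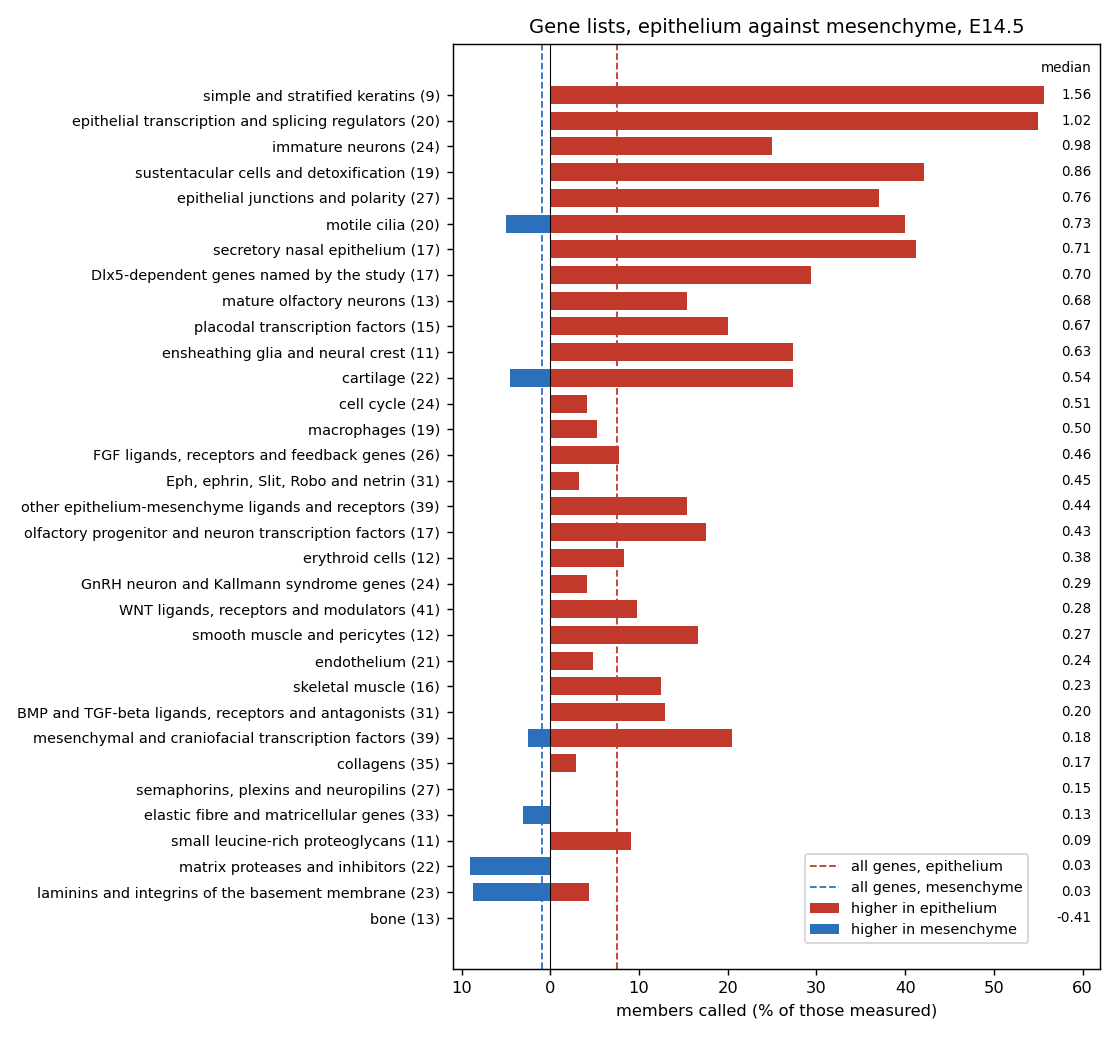
Share of measured members of each gene list (number measured in brackets) called higher in EPI (red, to the right) or in MES (blue, to the left), ordered by the median difference printed at the right. Dashed lines mark the shares over all genes, 7.52% and 0.908%. Keratins and epithelial regulators lead, and the bone list, with a median of -0.41, has no call on this scale.

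Sustentacular, ciliated and secretory genes followed. Of 19 sustentacular and detoxification genes, 8 (42.1%, against 7.52% of all genes) were called higher in EPI with a median of 0.86. Of these calls 7 held whichever array was left out. Cbr2, a carbonyl reductase, read 10.68, 10.94 and 11.19 in EPI and 8.59, 8.67 and 8.83 in MES (2.24 ± 0.16, 4.72-fold). The drug-metabolizing genes Ephx1 (1.59), Fmo2 (1.55), Gsta3 (1.53), Sult1d1 (1.46) and Gsta4 (1.40) were called. Cyp2g1, a cytochrome P450 of the olfactory mucosa and a defining marker, was not: it read 9.37, 10.004 and 9.74 in EPI and 9.67, 9.62 and 9.59 in MES, overlapping values. Of 17 secretory genes 7 (41.2%) were called (median 0.71), led by Bpifa1, Reg3g (1.88), an antimicrobial lectin, and the protease Tmprss2 (1.28). Scgb1a1, the secretoglobin of club cells, differed by 1.02. The call of Reg3g was lost without MES replicate 1 or 2 (1.78 and 1.87), and 4 of the 7 calls held in every fit that left out an array. As deposited, 6 sustentacular and 2 secretory genes were called, all in EPI.

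Of 20 genes of motile cilia, 8 (40%) were called higher in EPI and 1 (5%) higher in MES, with a median of 0.73. Over all genes these shares were 7.52% and 0.908%. Foxj1, the transcription factor that turns on the motile cilia program, read 8.15, 8.09 and 8.31 in EPI and 7.06, 6.47 and 6.70 in MES (1.44 ± 0.17). The dynein light chain Dynlrb2 differed by 1.99 and the radial spoke gene Rsph1 by 1.32. Dnah11, an axonemal dynein heavy chain, was lower in EPI (-0.96), a call lost without EPI replicate 2 (-0.83), and 6 of the 9 calls held whichever array was left out. As deposited, 2 were called in EPI and 1 in MES. Genes of cilia are known to share the X-box, the binding site of RFX factors, and because several of these members were called their promoters were searched for the GTTGCCNNG motif of that box on both strands within 250 bases before the start. It was found in 5 of the 16 cilia members with a promoter in RefSeq (GRCm38.p6), against 4.82% of the 11855 genes with a promoter. The shares were 7.57% of genes called higher in EPI and 2.56% of those called higher in MES. These gene sets, unlike those counted above, include OR genes. The 30 bases around the match are shown in the direction of the gene, with the match, on either strand, in capitals. They lie at chr8:116504954-116504983 (Dynlrb2, plus strand), chr2:21205380-21205409 (Enkur, minus), chr17:56831105-56831134 (Rfx2, minus), chr1:69826846-69826875 (Spag16, plus) and chr4:126325765-126325794 (Tekt2, minus).
Dynlrb2: ttcctgcctgGTTGCCTAGcaacgggggaa
Enkur: taaaagccagGTTGCCCCGtctcctagcaa
Rfx2: cttggtaaccGTTGCCGGGcgcaacgcccc
Spag16: tctggggtaaCTAGGCAACgcgttgccgta
Tekt2: cagctgcgcgGTTGCCTGGctaagctgagg
Of these 5, Dynlrb2 (1.99) and Enkur (0.96) were called higher in EPI, and Tekt2 (0.86), Spag16 (0.40) and Rfx2 (0.20) were not. The match begins 51 bases before the start in Dynlrb2 and 116 in Rfx2. The site of grainyhead factors (AACCGGTT), searched in the same way, was found in 0 of 15 promoters of junction genes, 0 of 11 of epithelial regulators and 0.186% of all. The site of EBF factors, a palindrome of olfactory neuron genes, was found in 0 of 10 promoters of mature neuron genes and 1.09% of all.

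Of 24 genes of immature neurons 6 were called, all higher in EPI (median 0.98), where 7.52% of all genes were. This count fell to 1 on the values as deposited, after quantile normalization and with Rank Products, the rank-based test that the methods name. Stmn2, a microtubule regulator of growing neurons, read 10.74, 11.41 and 10.01 in EPI and 9.30, 9.40 and 9.31 in MES. Gap43, a growth cone protein, read 10.81, 11.43 and 10.83 against 9.95, 9.98 and 9.94. Both were above MES on all EPI arrays and highest in EPI replicate 2, the array that also had the highest mean of the forebrain neuron list (8.63). The part of that tissue in these differences was not tested. Dcx, a microtubule protein of migrating neurons, read 9.48, 11.17 and 8.78 against 8.98, 8.88 and 8.87, overlapping values that did not pass the test (0.90, adjusted p = 0.260). The calls that held whichever array was left out were those of Dpysl3 (1.29) and Prph (1.05). That of Stmn2 was lost without EPI replicate 1 (1.37) or any MES array, and that of Gap43 fell below the minimum difference without EPI replicate 2 (0.87).

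Of 13 genes of mature olfactory neurons, 2 (15.4%) were called higher in EPI, where 7.52% of all genes were. As deposited 1 was called in EPI and 1 in MES, after quantile normalization 3 and 0, and with Rank Products 0 in either. Gng13, a G protein subunit of olfactory and taste cells, read 5.93, 6.34 and 6.30 in EPI and 4.59, 4.71 and 4.88 in MES (1.46 ± 0.15). Omp, the olfactory marker protein, read 7.81, 8.34 and 8.87 against 7.47, 7.24 and 7.34. All EPI values of Omp lay above the MES values, but the call (0.99 ± 0.27, adjusted p = 0.0317) was kept in only 1 of 6 fits that left out an array, the one without EPI replicate 1. Among the transduction genes Cnga2 differed by 0.88, Gnal by 0.67 and Adcy3 by -0.05, none called. Of the transcription factors of olfactory progenitors and neurons, 3 of 17 (17.6%) were called: Isl1 (1.95), Sox11 (1.42, lost without MES replicate 3 at 1.33) and Neurod1 (1.36). Of those of the placode, 3 of 15 (20%) were called: Pitx1 (1.43), Sox2 (1.43) and Otx2 (1.13). As deposited 1 of the 17 (median -0.07) and 2 of the 15 were called in EPI, and 0 and 1 in MES. After quantile normalization these were 3 and 2 in EPI and 0 and 1 in MES. With Rank Products they were 1 and 0 in EPI. Sox2, kept by neural and epithelial progenitors, read 10.14, 10.56 and 9.83 in EPI and 8.75, 8.81 and 8.69 in MES, well apart on every array. Dlx5 itself, the factor whose loss the series also studies, read 9.43, 9.35 and 8.95 against 8.54, 8.40 and 8.44 and was not called at 0.79.

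None of the 10 genes with the largest differences towards MES belonged to a list of mesenchymal or matrix genes. Phxr4 read 4.73, 4.13 and 4.95 in EPI and 7.62, 7.54 and 7.51 in MES, a 7.75-fold difference (-2.96 ± 0.22, limma, adjusted p = 0.00206). 2310067E19Rik read 6.53, 6.42 and 7.25 against 9.50, 9.60 and 9.62 (-2.84). Sim1, a bHLH-PAS transcription factor best known from the hypothalamus, read 6.93, 6.54 and 6.50 against 8.92, 8.86 and 8.90 (-2.23 ± 0.14, 4.69-fold). In each the fractions were far apart, with little spread in MES. 8430431K14Rik (-2.86), A630012P03Rik (-2.58), 4931406H21Rik (-2.38), the ADAM family gene Adam4 (-2.36) and Tbrg3 (-2.16) completed the calls that held in all fits. The antioxidant enzyme Gpx2 (-2.41) lost its call without EPI replicate 1 (-2.29) or MES replicate 1 (-2.38) or 2 (-2.26), and the bitter taste receptor Tas2r143 (-2.17) without EPI replicate 1 (-2.01).

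Among genes with known roles in mesenchyme and its matrix, those called higher in MES were 2 of 23 laminins and integrins (8.7%), 2 of 22 matrix proteases (9.09%), 1 of 33 elastic fibre and matricellular genes, 1 of 22 cartilage genes and 1 of 39 transcription factors, where 0.908% of all genes were called in this direction. Of the laminins and integrins 1, Lamb3 (0.92), was called higher in EPI, a call kept in 1 of 6 fits that left out an array. Zfhx4, a zinc finger homeobox factor, read 9.36, 8.65 and 9.31 in EPI and 10.81, 10.80 and 10.76 in MES (-1.68 ± 0.21, 3.21-fold). Itga11, the collagen-binding integrin subunit of fibroblasts, read 7.34, 7.29 and 7.09 against 8.50, 8.41 and 8.42 (-1.20 ± 0.11). Both calls held whichever array was left out and under all 4 scalings. Tnc, which encodes tenascin C (-0.99), the laminin gene Lama2 (-0.90), the metalloproteases Adamts19 (-0.97) and Adamts20 (-0.94) and the chondrocyte factor Sox6 (-1.01) were called. Each of these lost its call without EPI replicate 2 (-0.68, -0.74, -0.61, -0.76 and -0.90, the last just short of the minimum), Tnc and Adamts19 also without EPI replicate 1 (-1.11 and -1.14) or any MES array, and Lama2 without MES replicate 1 (-0.89). Efna5, a guidance ligand, read 10.22, 9.82 and 9.85 in EPI and 10.86, 10.86 and 10.84 in MES, wholly apart but short of the minimum difference (-0.88, adjusted p = 0.00602).

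Of 39 transcription factors of mesenchyme and face, 8 (20.5%) were called higher in EPI and 1 (2.56%) higher in MES, with a median of 0.18. Over all genes these shares were 7.52% and 0.908%. The balance turns with the scale: on the values as deposited 4 were higher in EPI and 7 in MES (median -0.32), and after quantile normalization 7 and 4 (-0.08). Those called under all 4 scalings were Tbx22, Tbx18, Foxf2 and Foxd2 in EPI and Zfhx4 in MES. Tbx22, a gene of palate formation, read 7.31, 6.52 and 6.39 in EPI and 4.70, 4.58 and 4.62 in MES (2.11 ± 0.25). Tbx18 read 8.19, 7.87 and 7.10 against 5.93, 5.93 and 6.21 (1.70). Foxf2, a target of hedgehog signalling in facial mesenchyme, read 9.14, 7.79 and 7.75 against 6.52, 6.33 and 6.22 (1.87). These mesenchymal factors were thus higher on every array of the fraction labelled epithelial. The call of Foxf2 was lost without MES replicate 2 (1.86) or 3 (1.80), and that of Foxf1 (1.66) was kept in 1 of 6 fits, the one without EPI replicate 2 (2.15), and was 1.19 to 1.85 in the others.

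Cartilage genes read higher in EPI replicates 1 and 3 than in EPI replicate 2. Of 22 measured, 6 (27.3%) were called higher in EPI (Epyc, Matn1, Col9a1, Chad, Comp and Ucma) and 1 (4.55%), Sox6, higher in MES. Over all genes 7.52% and 0.908% were called in these directions. Taken as deposited, 1 was higher in EPI and 2 in MES (median 0.05), after quantile normalization 3 and 1, and Epyc and Sox6 kept their calls under all 4 scalings. Col2a1, the main collagen of cartilage, read 11.56, 10.24 and 11.34 in EPI and 10.40, 10.35 and 10.36 in MES, so that replicates 1 and 3 were above and replicate 2 below. Acan read 9.87, 8.40 and 9.48 against 9.11, 9.11 and 8.98. Neither was called (adjusted p = 0.162 and 0.716). Without EPI replicate 2 the list had 10 calls, all higher in EPI, with Col2a1 at 1.08, and its median moved from 0.54 to 0.84. Of the 7 calls only that of Epyc held whichever array was left out. Matn1, for example, lost its call without EPI replicate 1 (1.19) or 3 (1.16) or any MES array.

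Of 35 collagens 1 was called higher in EPI (Col9a1, 1.24) and 0 in MES. Of 33 elastic fibre and matricellular genes 1 was called in MES, and of 22 matrix proteases 2 in MES. Over all genes 7.52% were called in EPI and 0.908% in MES. The medians of these lists were 0.17, 0.13 and 0.03. The call of Col9a1 was kept only without EPI replicate 2 and was lost in the other 5 fits (0.97 to 1.27). On the values as deposited 5, 6 and 4 members of these lists were called higher in MES and 0 in EPI. Of 13 bone genes 0 were called, with a median of -0.41, the lowest of the lists. Without centring, 6 were called higher in MES (median -0.91), after quantile normalization 2 (-0.65) and with Rank Products 0. The osteoblast factor Sp7 read 8.74, 7.92 and 8.55 in EPI and 8.98, 8.77 and 8.95 in MES (-0.50, and -0.99 as deposited, where it was called), and bone sialoprotein, Ibsp, read 9.11, 10.002 and 11.01 against 10.47, 10.48 and 10.35 (-0.39). The Ibsp values of EPI spanned almost 2 units around a tight MES level.

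The markers of other cell types that were called were all higher in EPI on the centred scale. On the values as deposited 0 members of the lists of smooth muscle, endothelium, macrophages, erythroid cells, glia and skeletal muscle were called in EPI, and 1 muscle gene was called in MES. Of 12 genes of smooth muscle and pericytes, 2 (16.7%, against 7.52% of all genes) were called. Their median was 0.27, against 0.30 over all genes. Smooth muscle actin, Acta2, read 10.32, 10.67 and 10.57 in EPI and 9.21, 9.26 and 9.32 in MES (1.25 ± 0.12), and the smooth muscle gene Tagln differed by 1.09. The other defining markers, Rgs5 (0.84), Myh11 (0.16) and Pdgfrb (-0.20), were not called, and as deposited they were 0.34, -0.34 and -0.70. Of 21 endothelial genes 1 (4.76%) was called, below the share of all genes. This was Cldn5 (1.10), kept only without EPI replicate 1, at 1.38, and lost in the other 5 fits at 0.75 to 1.17. Cdh5 (-0.08), Kdr (0.07) and Pecam1 (0.24) did not separate the fractions. Of 19 macrophage genes C1qa (1.18) was called, of 12 erythroid genes Alas2 (1.10), and of 16 skeletal muscle genes Tnnc1 (1.21) and Myod1 (0.99), all higher in EPI. These calls were 5.26%, 8.33% and 12.5% of the lists, the first below and the second near the share of all genes. The call of Myod1 was lost without EPI replicate 3 (0.84) or MES replicate 2 (0.86) or 3 (0.97). Of 11 genes of ensheathing glia and neural crest, Gfra3 (1.15), Ednrb (1.01) and Frzb (0.91) were called (27.3%), whereas Sox10 (0.51) and Fabp7 (0.63) were not. Ednrb lost its call without EPI replicate 2 (0.80) and Frzb without any array but that one (0.66 to 0.93). Fabp7 read 8.40, 9.78 and 7.45 in EPI around 7.89, 7.93 and 7.92 in MES. The part that these cells had in the differences was not tested.

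Genes of signalling between the layers were called in EPI in shares near that of all genes (7.52%) or somewhat above it: 7.69% of the FGF, 9.76% of the WNT, 12.9% of the BMP and TGF-beta and 15.4% of the other ligands and receptors, and 0 in MES. This direction depends on the scale. On the values as deposited 2 FGF, 1 WNT, 2 BMP and TGF-beta, 2 other, 4 semaphorin and 3 Eph, ephrin, Slit, Robo and netrin genes were called in MES, against 0, 0, 1, 2, 0 and 0 in EPI, and Shh, Aldh1a2 and Nog were those called in EPI under all 4 scalings. Shh read 6.23, 6.75 and 6.64 in EPI and 5.30, 4.85 and 4.84 in MES (1.54 ± 0.20), while its receptor Ptch1 (-0.09) and its target Gli1 (-0.86) were not called. Pdgfa was higher in EPI (1.17 ± 0.16), and its receptor Pdgfra was the marker nearest to a call in MES. The retinoic acid genes Aldh1a2, which makes it, and Cyp26a1, which degrades it, differed by 1.65 and 1.31. Aldh1a2 read 11.02, 10.33 and 10.46 in EPI and 8.86, 8.99 and 9.01 in MES. The receptor Ntrk2 (1.29) and the ligand Edn1 (0.95, kept in 4 of 6 fits that left out an array) were called in EPI as well. In the FGF list 2 of 26 were called, the epithelial ligand Fgf9 (1.11) and the feedback phosphatase Dusp6 (1.03). Fgfr1 (-0.32) and Fgfr2 (-0.83) and the ligands Fgf7 (-0.45) and Fgf10 (-0.44), made by mesenchyme in many organs, did not pass. In the BMP and TGF-beta list 4 of 31 were called, the antagonist Nog (1.83), the ligand Gdf5 (1.26) and the target genes Id3 (1.16) and Id4 (0.99, lost without EPI replicate 2 at 0.88).

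In the WNT list 4 of 41 were called, the receptors Fzd8 (0.98) and Fzd6 (0.98) and the secreted antagonists Sfrp5 (0.97) and Frzb (0.91). Without EPI replicate 2 Fzd8 (0.89) and Sfrp5 (0.80) fell below the minimum, and Sfrp5 also without MES replicate 3 (0.90). Nog read 7.36, 6.60 and 6.59 in EPI and 5.45, 4.67 and 4.94 in MES, without overlap. Among guidance genes, Cxcr4, the chemokine receptor of migrating GnRH neurons, read 9.76, 9.86 and 9.82 against 8.63, 8.69 and 8.45 (1.23 ± 0.11). It was the 1 call of 31 (3.23%, below the 7.52% of all genes), and its ligand Cxcl12 differed by 0.49. Of 27 semaphorins, plexins and neuropilins 0 were called. Sema3a, the repellent of olfactory axons, differed by -0.01 and its receptor subunit Nrp1 by 0.30. Of 24 genes of GnRH neurons and Kallmann syndrome, Dusp6 was the only call (4.17%, below the 7.52% of all genes), and Gnrh1 (0.28) and Fgfr1 were not called. Of 17 genes that the study names as depending on Dlx5, 5 were called higher in EPI: Gdap1 (1.54), Ugt8a (1.19), Ermn (1.14), St8sia6 (1.03) and Lgi1 (0.99), a share of 29.4% against 7.52% of all genes. Of the 17, 0 were called as deposited, 6 after quantile normalization and 1 with Rank Products. The call of Gdap1 was lost without MES replicate 1 (1.5) or 3 (1.49). Islr2 read 8.52, 10.90 and 6.82 in EPI against 6.22, 6.11 and 6.10 in MES and did not pass (2.60, adjusted p = 0.0781).

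The study took 3 genes as epithelial only and 2 as mesenchymal only when it judged how much of the other tissue its samples held. Their levels in the deposited arrays were read side by side on the linear scale. The MES level was 36.9% of the EPI level for Foxj1, 34.1% for Fmo2 and 35.7% for Ehf (as deposited 52.0%, 48.1% and 50.4%). Over the 9 pairs of arrays Foxj1 ranged from 28.0% to 48.9%. The EPI level was 70.8% of the MES level for Sp7 (48.1% to 97.6% over the pairs), 50.2% as deposited and 57.7% after quantile normalization. Cnmd, named Lect1 at the time, read 10.49, 9.27 and 10.82 in EPI and 9.86, 9.86 and 9.85 in MES. Its MES level was 79.1% of the EPI level, but 112% as deposited and 105% after quantile normalization, so its direction turns with the scale. From real-time qPCR of the 2 mesenchymal genes the study put the mesenchymal part of its epithelial samples at roughly 15%. From the 3 epithelial genes it put the epithelial part of its mesenchymal samples lower than that. The MES levels of Foxj1, Fmo2 and Ehf belong beside this lower estimate. The study compared ages in its epithelial samples both before and after taking 15% of the MES level from the EPI values. Over all 14090 genes, 3 had an EPI level below 15% of the MES level, and 8 as deposited. Array values compress ratios, so these percentages are not shares of cells and not the same measure as the qPCR estimates.

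Next, the contrast was set against that of the VNO, the chemosensory organ beside the nasal septum, at the same age. The difference between the contrasts passed the threshold upward in 123 genes (0.873%) and downward in 173 (1.23%) of 14090. These 296 genes became 874 without EPI replicate 3 of the OE and 145 to 187 without any one MES array of the OE, any one EPI array of the VNO or MES replicate 3 of the VNO. Epithelial markers had similar contrasts. The Epcam contrast was 1.48 in the OE against 1.23 in the VNO (difference 0.26 ± 0.13, limma, adjusted p = 0.267). Krt19 differed by 2.45 and 2.37 (difference 0.08 ± 0.24, adjusted p = 0.871). Epyc (2.99 against 1.03, adjusted p = 0.00694) and Nts (3.21 against 0.80, adjusted p = 0.0203) were higher relative to MES in the OE than in the VNO, though that of Nts was lost without any MES array of the OE (2.35 to 2.43), EPI replicate 2 or 3 of the VNO (2.37 and 2.38) or MES replicate 3 of the VNO (2.45). Neurod6 was at -0.07 in the VNO, but its difference of 3.74 ± 1.05 did not pass (adjusted p = 0.0840).

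Bone and muscle genes went the other way. Of 13 bone genes 7 and of 16 skeletal muscle genes 10 had a lower contrast in the OE than in the VNO, and 0 a higher one. As deposited these were 8 and 13, and with the 12 arrays quantile normalized together 8 and 9. The Ibsp contrast was -0.39 in the OE but 4.37 in the VNO (difference -4.76 ± 0.51, adjusted p = 0.00266), Sp7 at -0.50 and 2.11 (-2.61 ± 0.26) and the alkaline phosphatase gene Alpl at -0.66 and 1.73 (-2.39 ± 0.31). On a common centring of the 24 arrays, Ibsp read 11.71, 11.76 and 11.65 in EPI and 7.39, 7.09 and 7.52 in MES of the VNO, and 10.53, 10.54 and 10.41 in MES of the OE. In the VNO the bone gene was thus high in the fraction labelled epithelial. The muscle genes Myog (0.66 against 2.49) and Myl1 (0.33 against 2.81) differed by -1.83 ± 0.26 and -2.47 ± 0.21. Of the genes highest in MES, Sim1 (-2.23 against -0.16, difference -2.07 ± 0.17) and Itga11 (-1.20 against -0.21) were lower relative to MES in the OE than in the VNO, whereas Phxr4 (-2.96 and -2.86) and Adam4 (-2.36 and -2.32) had near equal contrasts (differences of -0.10 ± 0.25 and -0.05 ± 0.32).

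**Figure D5:**
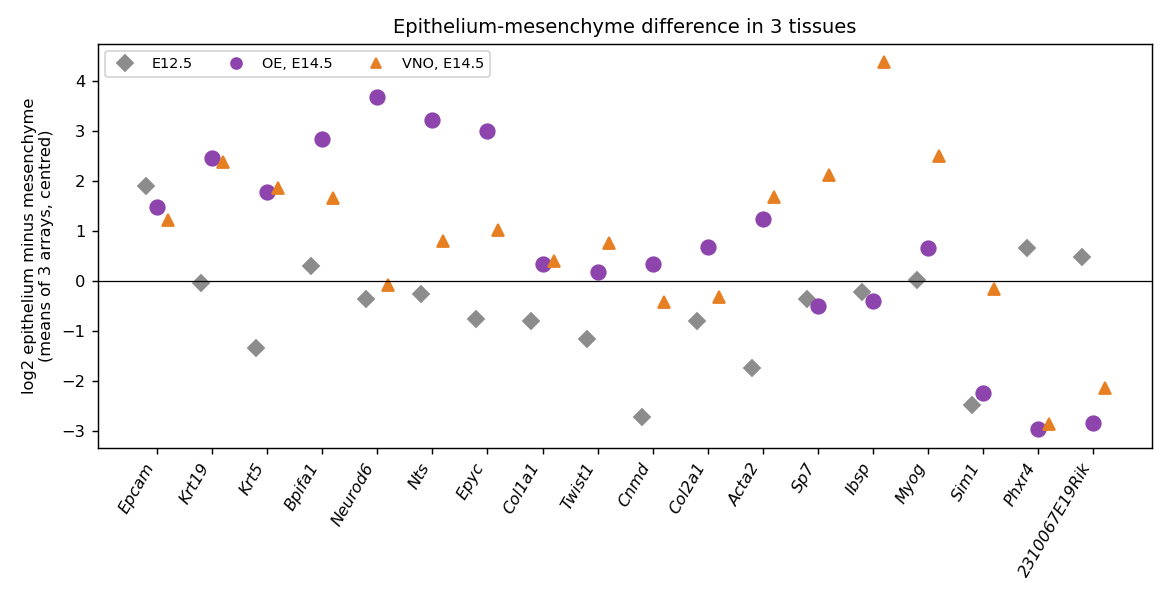
Difference of EPI minus MES, log2 means of 3 arrays each, for 18 genes at E12.5 (diamonds), in the E14.5 OE (circles) and in the E14.5 VNO (triangles). Epcam is above 1 in all, Ibsp, Sp7 and Myog are high only in the VNO contrast, and Phxr4 and 2310067E19Rik are below 0 only at E14.5.

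At E12.5 the contrast looked different. The difference, OE at E14.5 minus E12.5, passed upward in 2170 genes (15.4%) and downward in 299 (2.12%), and the median contrast over all genes was 0.30 at E14.5 and -0.07 at E12.5. Cartilage and mesenchymal genes were among those that gained. Of 22 cartilage genes 16, of 39 mesenchymal factors 18 and of 35 collagens 14 had a higher contrast at E14.5, and the median contrasts of these lists went from -0.91, -0.56 and -0.64 to 0.54, 0.18 and 0.17. As deposited the higher contrasts were 10, 12 and 7, and after quantile normalization 11, 13 and 6. Lower contrasts at E14.5 were 0, 2 and 0 when centred, and 0, 4 and 0 both as deposited and after quantile normalization. Cnmd moved from -2.72 to 0.34 (difference 3.06 ± 0.80, adjusted p = 0.0118), Twist1 from -1.15 to 0.18 (1.33 ± 0.39) and Col1a1 from -0.79 to 0.35 (1.14 ± 0.26), the last 2 not past the threshold as deposited or after quantile normalization. Acta2 moved from -1.73 to 1.25 (2.99 ± 0.16).

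Of 9 keratins 6 had a higher contrast at E14.5 and 1 a lower one, and 6 and 2 both as deposited and after quantile normalization. Krt5 went from -1.34 to 1.77 (3.11 ± 0.50) and Krt19 from -0.04 to 2.45 (2.49 ± 0.25). Foxj1 (-0.50 to 1.44) and Bpifa1 (0.30 to 2.84) gained as well. Epcam went from 1.89 to 1.48 and was below the minimum difference (-0.41 ± 0.14), which it passed after quantile normalization. On the common centring the MES level of Epcam was 8.44 ± 0.04 (SD, n = 3) at E11.5, 9.25 ± 0.11 at E12.5, 9.91 ± 0.04 in the E14.5 OE and 10.17 ± 0.04 in the VNO, with no overlap between groups, while its EPI level stayed between 11.15 and 11.39 in the mean. Of the genes highest in MES at E14.5, Sim1 had the same direction at E12.5 (-2.48). Phxr4 (0.67), 2310067E19Rik (0.49), Adam4 (0.12) and Tbrg3 (0.46) were not lower in EPI at that age. Phxr4 read 7.57, 7.36 and 7.86 in EPI at E11.5, 7.99, 7.68 and 8.26 at E12.5, 4.79, 4.19 and 5.01 in the E14.5 OE, and 4.53, 4.78 and 4.62 in the E14.5 VNO, against MES means of 7.31 to 7.62 throughout. Its low values were thus those of the EPI arrays at E14.5 alone among the 8 groups. Whether those arrays share a processing step that sets them apart was not tested.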

How the data were processed

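The authors hybridized RNA of dissected tissue, depleted of ribosomal RNA, to Affymetrix Mouse Exon 1.0 ST arrays and deposited RMA values on the log2 scale. The methods name OneChannelGUI in Bioconductor and a separate run for each pairwise comparison. The submitters' notes name RMA and the mm9 assembly, and versions are not given in the sources used here. Of 23339 transcript clusters, 23238 have values on the 24 time-course arrays. Clusters with 1 symbol (14996) gave 14807 genes, on the brightest cluster by the mean of those arrays, OR genes (717) being counted apart. The number of arrays limits the precision, and background per probe was not used here.

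The members and the 33 lists were chosen with earlier results of these data known. Of 841 list entries 730 were measured. The 6 arrays were centred on their medians and fitted with limma 3.58.1 (lmFit, eBayes) in R 4.3.3, two-sided. Differences between contrasts were interaction terms over 12 arrays. The methods' own test, Rank Products with 100 permutations, was an alternative, as were other scalings, filters, priors and fits and each array left out. The 173 named genes took in the 10 largest calls each way with no overlap of arrays and the 4 largest of a list each way. They also took in genes the study names, defining markers and called signalling genes. Not all of them are given above. Some ligand or receptor partners were added. Other list members given with their values, the forebrain list and the mitochondrial list were chosen after their values were seen. Promoter sequences are from RefSeq, and figures were drawn with matplotlib. The scripts were tested on simulated data.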

Additional observations from a re-analysis of the deposited data

Results flagged for a closer look

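Of the 173 named genes, those whose contrast of EPI against MES in the OE at E14.5 differed from that in another tissue, by the interaction term of the limma fit (adjusted p of at most 0.05, size of at least 0.9), are given here with the difference of the log2 contrasts. Against the VNO at E14.5 the contrast was higher in the OE for 11 genes. They were the neuronal genes Nts (2.40), Gng13 (1.37), Lhx2 (1.31), Neurod1 (0.91) and Homer2 (0.91), the cartilage and joint genes Epyc (1.96) and Gdf5 (1.24), the palate gene Tbx22 (2.64), and Ednrb (1.03), Sfrp5 (1.02) and Tmprss2 (0.91). It was lower for 12 genes. They were the muscle genes Myl1 (-2.47), Tnnc1 (-2.25) and Myog (-1.83), the bone genes Ibsp (-4.76) and Sp7 (-2.61), the matrix and chondrocyte genes Tnc (-1.65), Dcn (-1.0), Itga11 (-1.0) and Sox6 (-0.91), the ligands Fgf7 (-1.68) and Wnt2 (-1.13), and Sim1 (-2.07). Adjusted p-values were 0.000616 to 0.044, and 12 of these 23 differences were past the threshold in each of the 12 fits that left out an array. Of the 12 fits Homer2 was lost in 11, Neurod1, Ednrb and Sfrp5 in 10 each, Tmprss2 in 9, Lhx2 and Wnt2 in 7 each, Nts and Tnc in 6 each, Sox6 in 5 and Dcn in 4. Dcn was not past the threshold without EPI replicate 1 (-0.85), MES replicate 1 or 3 of the OE or EPI replicate 1 of the VNO (-0.99 for each of these 3 arrays).

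Against E12.5 the contrast was higher in the OE at E14.5 for 60 named genes and lower for 16, with adjusted p of 1.45e-05 to 0.0494, and 61 of these 76 were past the threshold whichever array was left out. Among the higher, neuronal genes were Neurod6 (4.02), Nts (3.46), Nrn1 (1.97) and Sox11 (1.28). Genes of the epithelium and its products were Krt5 (3.11), Krt14 (3.09), Serpinb11 (2.65), Bpifa1 (2.55), Krt19 (2.49), Foxj1 (1.94), Krt17 (1.82), Cldn8 (1.72), Cfap126 (1.68), Cbr2 (1.57), Gsta3 (1.40), Reg3g (1.39), Lcn2 (1.29), Tmprss2 (0.97) and Rsph1 (0.92). Cartilage genes were Epyc (3.74), Cnmd (3.06), Col9a1 (2.52), Chad (2.38), Matn1 (2.10), Acan (1.75), Col2a1 (1.48) and Sox9 (1.26). Mesenchymal factors and matrix genes were Tbx18 (3.53), Foxf2 (2.88), Foxf1 (2.68), Tbx22 (2.42), Dcn (1.99), Lum (1.96), Twist1 (1.33), Col1a1 (1.14) and Eln (1.01). All these values are on the centred scale, where the median contrast of all genes was 0.30 at E14.5 and -0.07 at E12.5. Twist1 and Col1a1 did not pass as deposited or after quantile normalization. Of 17 olfactory progenitor and neuron factors 1 was higher and 4 lower when centred, against 0 and 9 on each of those scales. Signalling genes were Nog (2.19), Shh (1.78), Sema3c (1.75), Cyp26a1 (1.72), Gdf5 (1.38), Id3 (1.22), Sfrp5 (1.21), Bmp5 (1.17) and Fst (1.0).

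Other cell types gave Acta2 (2.99) and Tagln (2.15) of smooth muscle, C1qa (1.39) and Csf1r (1.26) of macrophages, Alas2 (1.24) of erythroid cells, Cldn5 (1.25) of endothelium, Fabp7 (2.02), Sox10 (1.53), Gfra3 (1.42) and Ednrb (1.18) of glia and neural crest, and Myl1 (1.12) and Tnnc1 (0.97) of muscle. The remaining genes higher at E14.5 were AY036118 (3.36), Cetn4 (2.20) and Mcm3 (1.26). Lower were the olfactory transcription factors Dlx5 (-1.21), Lhx2 (-1.11) and Otx2 (-1.05), the epithelial and neuronal genes Dnah11 (-1.4), Cyp2g1 (-1.26), Lingo2 (-0.95) and Cldn7 (-0.93), and Zfhx4 (-1.32). The others were among the genes with the largest differences towards MES: Phxr4 (-3.63), 2310067E19Rik (-3.34), Tbrg3 (-2.63), Adam4 (-2.49), A630012P03Rik (-2.37), 8430431K14Rik (-2.30), 4931406H21Rik (-1.84) and Tas2r143 (-1.82). Of the 12 fits that left out an array, Cyp2g1, Reg3g and Bmp5 were lost in 10 each, Tas2r143 in 8, Lcn2 in 6, Rsph1 and Tnnc1 in 5 each, Lingo2 in 4 and Cldn7 in 3, and 6 others in 1 or 2. With 3 arrays in a group, single outlying arrays were not tested.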

How the results depend on the processing

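Against 1059 genes called higher in EPI and 128 in MES, the values as deposited gave 121 and 856, centring on the genes counted 259 and 471, centring on the median of the cluster differences 534 and 226, and centring with equal interquartile ranges 1306 and 231 (the last 3 were added after seeing the data). Rank Products gave 137 and 11, no minimum difference 4984 and 668, and brighter clusters only 784 and 42, where fewer clusters were tested. Leaving out an array gave 854 to 1350 and 98 to 161. The counts after quantile normalization, with the mean of clusters, with the intensity trend and in the 24-array fit stayed within 1.5 times. Quantile normalization nevertheless kept only 593 of the 1059 EPI calls and 75 of the 128 MES calls. The others of these settings kept 1057 to 1059 and 126 to 128. With the replicate number as a block the counts were 962 and 111, although the deviations of same-numbered arrays correlated at only -0.0787 to -0.00356, so the numbers were not taken as pairs. Of the 173 named genes none turned, 50 lost their call as deposited, 23 after quantile normalization, 57 with Rank Products and 9 with the block, and 67 of 103 calls held in every fit that left out an array. The 296 differences from the VNO became 541 without a minimum, 604 in the 24-array fit, 206 with the block and 145 to 874 with an array left out. The 2469 differences from E12.5 became 1571 as deposited, 6529 without a minimum, 2453 with the block and 2317 to 2678 with an array left out. The causes were not tested. The number of arrays limits all of these, and no signal over background was used.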

Other observations

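A list of 51 subunits of the mitochondrial respiratory chain was drawn up after some had been seen among the calls, so that its count is a description. Of 38 measured, 8 were called higher in EPI and 0 in MES, where 7.52% of all genes were called in EPI, with a median of 0.70 against 0.30 over all genes. On the values as deposited 2 were called, with a median of 0.20. The list mean was 9.53 to 9.54 on the EPI arrays and 8.76 to 8.80 on the MES arrays. Cox7a2, a subunit of cytochrome c oxidase, differed by 2.28, Atp5e, of the ATP synthase, by 1.62 and Ndufb7, of complex I, by 1.3. The median contrast of the list was 0.75 in the VNO and -0.30 at E12.5, and 26 of the 38 had a higher contrast in the OE at E14.5 than at E12.5, where 15.4% of all genes had, and 15 as deposited. Of 24 cell cycle genes, with a median of 0.51, Mcm3 (0.91) was the only call (4.17%). That call was not kept in every fit that left out an array.

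The genes called had shorter gene spans than the rest in both directions. The median span was 13574 bases for those higher in EPI, 13902 for those higher in MES and 22411 for genes not called. The median log2 level was 7.88 for those higher in EPI, 5.34 for those higher in MES and 7.54 for genes not called. The EPI arrays had the wider spread, which centring left in place, and its part in these levels was not tested.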
